A study of Homo sapiens with 10 samples.

Results

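Translation initiation factor genes were described in A375 cells, an established human melanoma line, across 4 groups of RNA-seq libraries. The genes were taken by symbol: every protein-coding gene whose symbol starts with EIF, without the EIF2AK kinases and EIF4EBP1. This gave 51 of the 60623 genes in the count tables, of which 47 passed the filter on low counts among 18450 genes tested. The knockdowns were done as separate experiments, each with its own controls. Experiment 1 held 4 libraries from cells given siRNA against PHF10, a subunit of the PBAF chromatin remodelling complex, and 2 controls. The titles of these 4 also carry the word total, which no label explains. Experiment 2 held 2 libraries labelled as knockdown of MYC, a transcription factor, and 2 controls. These are called MYC-labelled below because MYC mRNA did not set them apart. The treatment protocol lists a control siRNA for this work, whereas the siRNA field of all 4 control libraries reads no treatment. Cells were collected 72 h after transfection, all groups are the same line with no other genetic change named in the labels, and poly(A) RNA was sequenced with a kit that keeps the strand.

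Initiation of translation brings the small ribosomal subunit and the initiator tRNA to the start codon of an mRNA. The eIF2 complex carries the initiator tRNA and is recharged with GTP by eIF2B. The eIF4F complex, made of the cap-binding protein eIF4E, the scaffold eIF4G and the helicase eIF4A, loads the mRNA, and eIF3 bridges mRNA and ribosome. eIF1 and eIF1A hold the ribosome open for scanning, and eIF5 and eIF5B complete the choice of start codon and the joining of subunits. The 4E-BP proteins bind eIF4E and keep it from eIF4G. MYC is known to bind the E-box CACGTG, and EIF4E is a classical target of it.

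The E-box was looked for in promoter windows because one comparison concerns MYC. RefSeq (GRCh38.p14) gave 60 windows, from 250 bases before to 50 after each start, for 44 of the 51 genes. EIF2S2, EIF3A, EIF3CL, EIF3E, EIF3G, EIF3H and EIF3L had no entry. CACGTG, which reads the same on both strands, was in 11 of these windows (18.3%) and in 2548 of all 35116 windows of the same length (7.26%). The genes with it were EIF1B, EIF2B3, EIF3F, EIF3K, EIF4A3, EIF4B, EIF4E, EIF4EBP3, EIF4G1, EIF4H and EIF5A2. Below are the 250 bases upstream of the start for 4 of the eIF4 genes with the motif (a scaffold, the cap-binding protein, a helicase cofactor and a helicase of the eIF4A family), and for EIF4EBP2, which had the largest absolute fold change in the MYC-labelled comparison and no match. Capitals mark CACGTG.
EIF4G1 promoter, chr3:184314356-184314605, plus strand: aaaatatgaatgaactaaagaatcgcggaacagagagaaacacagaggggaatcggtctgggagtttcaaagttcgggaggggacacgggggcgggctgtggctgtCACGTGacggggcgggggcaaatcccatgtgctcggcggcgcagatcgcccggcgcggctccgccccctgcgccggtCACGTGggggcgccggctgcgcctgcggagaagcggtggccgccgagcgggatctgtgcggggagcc
EIF4E promoter, chr4:98929134-98929383, minus strand: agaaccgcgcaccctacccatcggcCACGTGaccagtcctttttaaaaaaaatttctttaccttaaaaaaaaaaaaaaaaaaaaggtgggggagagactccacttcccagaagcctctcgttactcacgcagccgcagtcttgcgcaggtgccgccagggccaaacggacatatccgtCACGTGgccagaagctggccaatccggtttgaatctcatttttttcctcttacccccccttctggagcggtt
EIF4B promoter, chr12:53006206-53006455, plus strand: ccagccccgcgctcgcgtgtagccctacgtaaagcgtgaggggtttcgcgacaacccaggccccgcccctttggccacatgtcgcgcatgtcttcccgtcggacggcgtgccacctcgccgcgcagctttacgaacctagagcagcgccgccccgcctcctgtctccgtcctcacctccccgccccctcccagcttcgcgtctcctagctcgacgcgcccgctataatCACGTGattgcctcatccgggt
EIF4A3 promoter, chr17:80147129-80147378, minus strand: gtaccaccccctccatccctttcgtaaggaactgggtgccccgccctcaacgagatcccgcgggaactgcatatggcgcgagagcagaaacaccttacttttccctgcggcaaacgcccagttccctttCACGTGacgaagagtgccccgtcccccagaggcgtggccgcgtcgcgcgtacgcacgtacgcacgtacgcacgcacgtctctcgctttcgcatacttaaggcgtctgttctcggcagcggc
EIF4EBP2 promoter, chr10:70403895-70404144, plus strand: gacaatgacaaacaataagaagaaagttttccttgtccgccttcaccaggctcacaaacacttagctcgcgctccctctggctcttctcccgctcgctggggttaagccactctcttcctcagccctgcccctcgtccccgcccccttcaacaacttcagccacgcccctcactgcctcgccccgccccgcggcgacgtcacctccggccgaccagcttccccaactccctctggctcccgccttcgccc
EIF4G1 and EIF4E each held 2 matches. A match describes the sequence and is no evidence of binding.

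The libraries held 20472465 to 38372289 reads assigned to genes. PHF10 mRNA separated its groups: the 4 knockdown libraries read 16.1, 18, 15.0 and 15.7 CPM (gene reads scaled to a common library size), against 40.1 and 36.6 in their controls (log2 fold change -1.24, SE 0.10, edgeR quasi-likelihood test, Benjamini-Hochberg adjusted p = 0.00105). MYC mRNA overlapped between the groups of experiment 2: it read 16.7 and 13.3 CPM in the MYC-labelled libraries and 15.0 and 26.5 in the controls there (-0.46 on the log2 scale, adjusted p = 0.688). MYC read 12.9, 9.69, 14.6 and 22 CPM after PHF10 knockdown and 20.2 and 32.1 in those controls (-0.82, adjusted p = 0.174). Of 11 melanoma lineage markers, MLANA and TYR were under 1 CPM in every library, and the summed level of the list was 953 to 1250 CPM after PHF10 knockdown, 1280 to 1320 in the experiment 1 controls, 1430 to 1510 in the MYC-labelled libraries and 1410 to 1420 in the experiment 2 controls. The 11 markers of other cell types summed to 13.4 to 49.7 CPM, with PTPRC, CD3E, CDH1, ALB and GFAP under 1 CPM throughout. The mean log2 CPM of 24 interferon-stimulated genes was 7.87 and 7.57 in PHF10 knockdown replicates 1 and 2 and 8.31 in control replicate 1, against 3.31, 4.83 and 4.72 in PHF10 knockdown replicates 3 and 4 and control replicate 2, and 2.85 to 3.14 in experiment 2. Both kinds of library were thus present in the knockdown and control groups of experiment 1.

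Most initiation factor genes were well expressed in A375. Per kilobase of transcript (RPKM, mean over the 10 libraries, with the median length of well-supported transcripts), EIF5A, which helps the ribosome through difficult stretches such as runs of proline, stood at 490, whereas its paralog EIF5A2 stood at 2.21. Among the scaffolds, EIF4G2, which lacks the eIF4E-binding part, stood at 173 RPKM and EIF4G1 at 106, and these ranges did not overlap whichever annotated transcript length was used (165 to 242 and 103 to 117). Of the subunits of eIF2, the gamma subunit EIF2S3 stood at 133, the beta subunit EIF2S2 at 51.2 and the alpha subunit EIF2S1, the target of the stress kinases, at 34.7 RPKM. The lengths allow 26.6 to 49.9 for EIF2S1, so how far it lies below EIF2S2 depends on the transcript used. The eIF3 subunits other than EIF3C and EIF3CL ran from 47 for the loosely bound EIF3J to 237 for EIF3I.

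The 4 genes that were not tested were EIF1AY, EIF3CL (25 reads over all libraries), EIF4EBP3 (26 reads) and EIF4E1B, a form of eIF4E known from germ cells, with 0 reads. EIF3C read 6.32 to 13.7 CPM, and its near-identical copy EIF3CL makes this count uncertain. EIF4A1 read 10.0 to 17.7 CPM, but 48.6% of its exon bases lie under other genes, among them the readthrough gene SENP3-EIF4A1 (0.243 to 0.691 CPM), so its level could not be set. EIF3L shares 41.1% of its exon bases with another gene, and EIF4A2, which hosts small nucleolar RNAs, 10.5%. EIF5AL1 and EIF2S3B are copies of EIF5A and EIF2S3 and read 0.626 to 1.13 and 0.445 to 1.06 CPM.

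After PHF10 knockdown, no initiation factor gene passed the threshold: 0 of 47 were called higher and 0 lower, where 6.34% of all genes were called (2.75% higher and 3.58% lower). The median log2 fold change of the 47 genes was -0.03, beside 0.02 over all genes, with a range of -0.71 to 0.50. At an unadjusted p under 0.05, 1 gene was higher and 6 were lower, where 2070 and 2114 of all 18450 genes were. DESeq2 called 1 gene lower, EIF1AX (6.14% of all genes), and limma-voom called 0 (2.65% of all genes in either direction). The point estimates were below 0 for 30 genes and above it for 17, beside 8836 and 9607 over all genes. With RNA pooled over many cells in each library, fewer cells making a transcript and less of it per cell cannot be told apart. The median moved with the control libraries, to -0.23 without control replicate 1 and to 0.13 without control replicate 2.

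**Figure D1:**
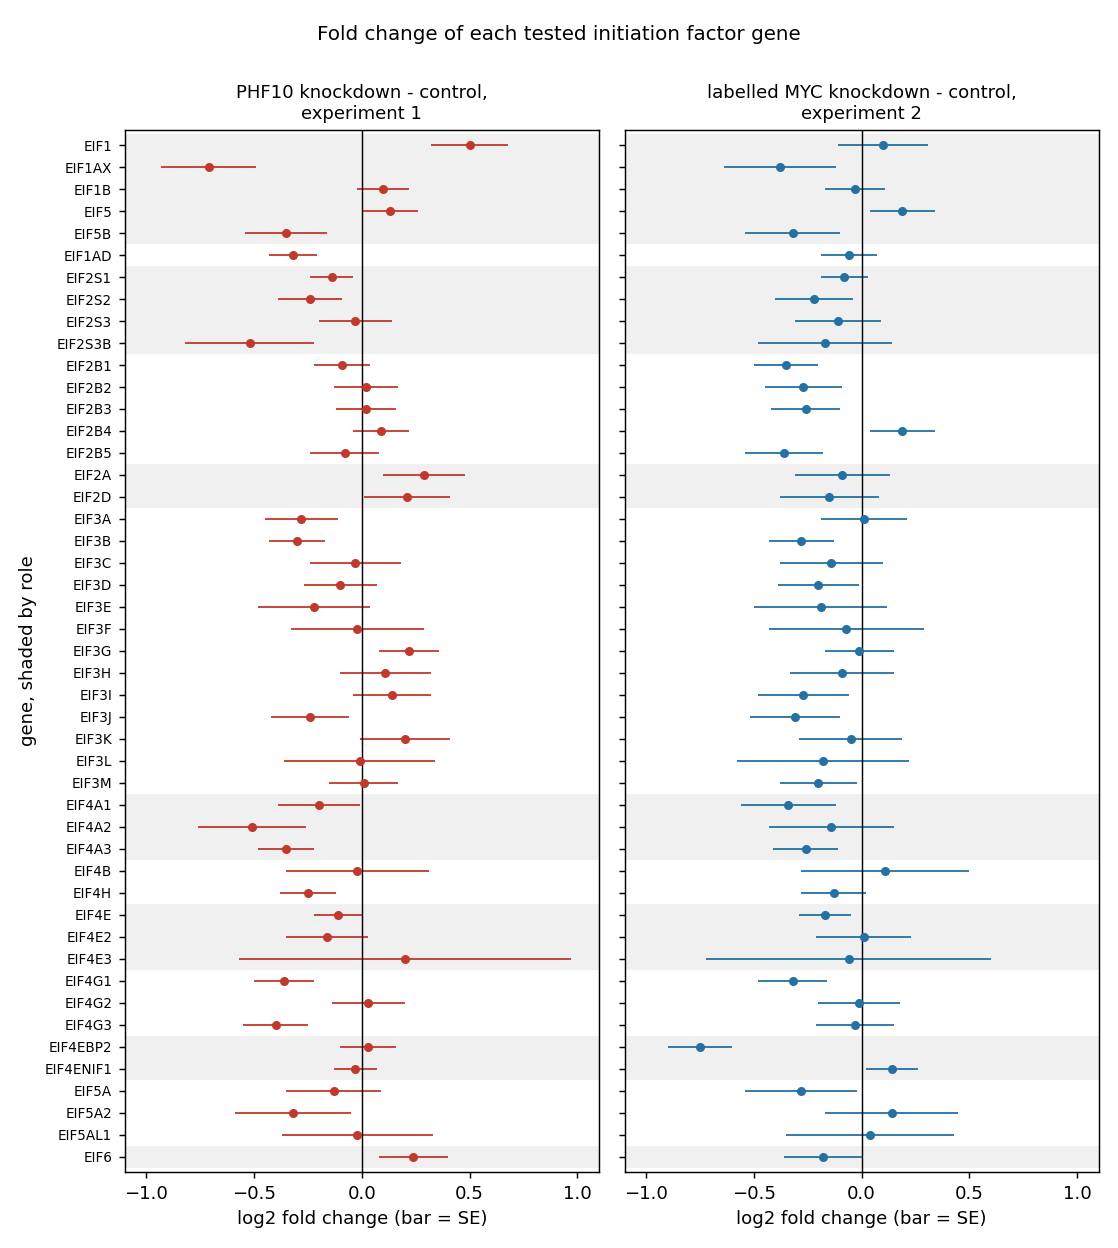
Log2 fold change of each of the 47 tested genes (x axis, bars are SE) for PHF10 knockdown against its controls (left) and for the MYC-labelled libraries against theirs (right), with genes ordered and shaded by role (y axis). EIF1AX (-0.71) and EIF1 (0.50) are the outermost points on the left, and EIF4EBP2 (-0.75) lies apart from the rest on the right.

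Among the scanning factors, EIF1AX (X chromosome, 20124518 to 20141844, GRCh38) encodes eIF1A. It read 38.1, 58.3, 72.7 and 44.1 CPM after PHF10 knockdown, 76.9 and 98 in the experiment 1 controls, 83.1 and 84.6 in the MYC-labelled libraries and 111 and 108 in the experiment 2 controls. All 4 PHF10 knockdown libraries lay below every other library. The log2 fold change was -0.71 (SE 0.22, adjusted p = 0.0919), and it passed the threshold in 4 of 21 alternatives, among them DESeq2 (adjusted p = 0.0346), with adjusted p from 0.000393 to 0.443 over all of them. EIF1, which guards the accuracy of start codon choice, pointed the other way: 443, 448, 583 and 586 CPM after PHF10 knockdown, 303 and 426 in those controls, 650 and 667 in the MYC-labelled libraries and 615 and 609 in the experiment 2 controls. Its PHF10 knockdown libraries lay above both of their controls and below every library of experiment 2. The fold change of EIF1 was 0.50 (SE 0.18, adjusted p = 0.145), and it was called higher with the interferon split as a term (SE 0.06, adjusted p = 0.0023). EIF1AD, a nuclear protein related to eIF1A, read 33.7, 29.5, 28.1 and 34.2 CPM after PHF10 knockdown and 41.6 and 36.9 in the controls (-0.32, SE 0.11, adjusted p = 0.126), again without overlap.

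In the eIF4F complex, EIF4G1 (chromosome 3, 184314495 to 184335358, GRCh38) read 535, 476, 602 and 601 CPM after PHF10 knockdown against 663 and 759 in the controls, and 507 and 468 against 601 and 619 in experiment 2. Both knockdown groups lay below their own controls without overlap, as did 13.7% of all genes in experiment 1 and 36.0% in experiment 2. The PHF10 fold change was -0.36 (SE 0.14, adjusted p = 0.158). Its paralog EIF4G3 read 203, 155, 149 and 211 CPM after PHF10 knockdown and 230 and 243 in the controls (-0.40, SE 0.15, adjusted p = 0.163), whereas EIF4G2 gave 0.03 (SE 0.17). EIF4A3, a helicase of the eIF4A family that works in the exon junction complex rather than at the cap, read 71.5, 76.1, 88.3 and 88.8 CPM after PHF10 knockdown and 92.5 and 115 in the controls (-0.35, SE 0.13, adjusted p = 0.133). Again no knockdown library reached a control. EIF4A2 was spread widely within the knockdown group, at 312, 162, 175 and 288 CPM against 361 and 306 (-0.51, SE 0.25, adjusted p = 0.268). EIF4H, which stimulates eIF4A, read 197, 192, 217 and 236 CPM against 225 and 277 and overlapped its controls (-0.25, SE 0.13, adjusted p = 0.286).

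The remaining roles stayed under the threshold as well. Of the eIF3 subunits, EIF3B, part of the core that binds the ribosome, had the smallest unadjusted p: it read 290, 281, 333 and 326 CPM after PHF10 knockdown against 335 and 422 (-0.30, SE 0.13, adjusted p = 0.215). The lowest control and the highest knockdown library differed by little. The 5 eIF2B subunits lay between -0.09 and 0.09. EIF2A, a factor that can deliver initiator tRNA without eIF2, read 147, 147, 207 and 204 CPM against 119 and 171 (0.29, SE 0.19, adjusted p = 0.422). EIF6, which keeps ribosomal subunits apart, read 154, 161, 218 and 181 CPM against 132 and 170 (0.24, SE 0.16, adjusted p = 0.408). Both overlapped their controls. EIF5A2 read 6.04, 13.1, 12.3 and 7.90 CPM against 11.7 and 12.9 (-0.32, SE 0.27, adjusted p = 0.531). EIF2S3B, a low-count copy of EIF2S3, read 0.715, 0.486, 0.445 and 0.477 CPM against 0.697 and 0.821 (-0.52, SE 0.30, adjusted p = 0.345). Over all 47 genes, 1 gene (EIF1) was higher in every knockdown library than in both controls, where 13.4% of all genes were, and 7 genes (EIF1AD, EIF1AX, EIF2S1, EIF3B, EIF4A3, EIF4G1 and EIF4G3) were lower in every knockdown library, where 13.7% of all genes were. These 7 are 14.9% of the tested initiation factor genes, close to the share of all genes.

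Within experiment 1, libraries of the same group differed widely. Initiation factor genes took 0.790%, 0.794%, 0.970% and 0.957% of gene reads in the 4 PHF10 knockdown libraries, in order of replicate number, and 0.823% and 1.00% in both controls, in the same order, against 0.950% to 1.03% in experiment 2. The lower shares were those of PHF10 knockdown replicates 1 and 2 and control replicate 1, the libraries with high interferon-stimulated genes. The same libraries had the highest shares of reads outside annotated features (12.1% to 13.8%, against 8.99% to 10.6% in the others). The part of either measure in the initiation factor levels was not tested. EIF4B, a cofactor of eIF4A, showed the split, a gene chosen after its values were seen: 327, 389, 629 and 661 CPM after PHF10 knockdown, 332 and 687 in the experiment 1 controls, 898 and 884 in the MYC-labelled libraries and 809 and 840 in the experiment 2 controls. EIF3L, also chosen after its values were seen, read 127, 134, 270 and 260 CPM after PHF10 knockdown, 136 and 262 in the controls, 283 and 273 in the MYC-labelled libraries and 316 and 314 in the experiment 2 controls. The PHF10 fold change of EIF4B was 0.08 among the interferon-high libraries and -0.09 among the rest of experiment 1, and that of EIF3L -0.09 and 0.02.

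**Figure D2:**
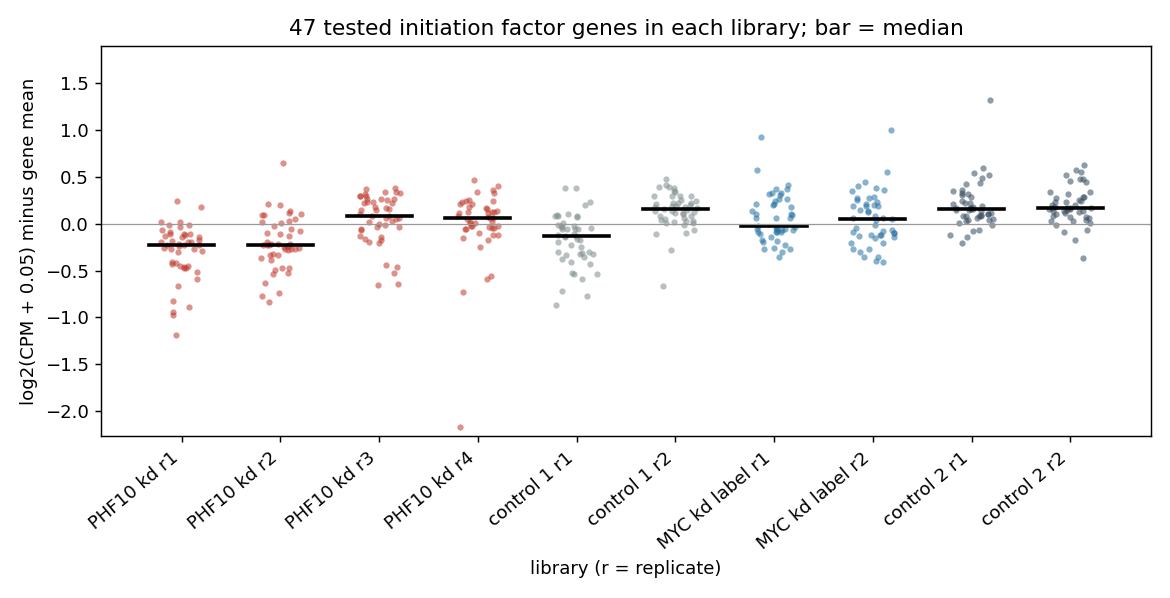
Each point is 1 of the 47 tested genes in 1 library (x axis), as log2(CPM + 0.05) minus that gene's mean over the 10 libraries (y axis), and the bar is the median. The medians are -0.23, -0.23, 0.09 and 0.06 after PHF10 knockdown (replicates 1 to 4), -0.14 and 0.16 in their controls, -0.03 and 0.05 in the MYC-labelled libraries and 0.16 and 0.17 in the experiment 2 controls.

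**Figure D3:**
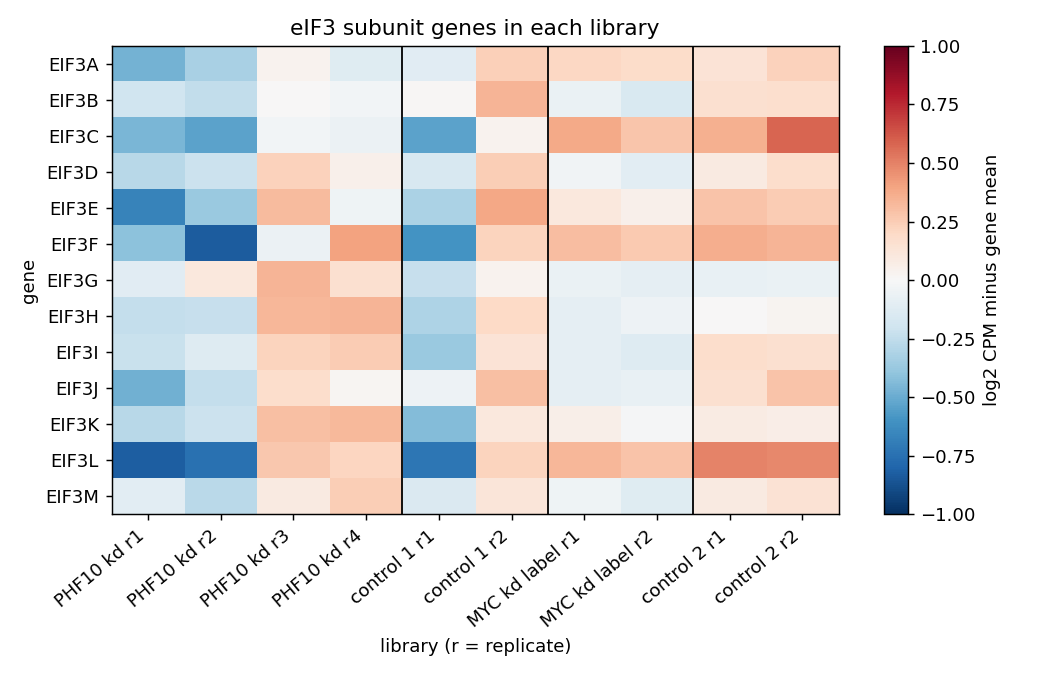
Log2 CPM of each tested eIF3 subunit gene (y axis) in each library (x axis) minus the gene's mean over the 10 libraries, as colour from low (blue) to high (red), with lines between the 4 groups. Values run from -0.83 to 0.58, and PHF10 knockdown replicates 1 and 2 and control replicate 1 are the bluest columns.

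With a term for this split in the edgeR fit, 2 genes were called higher after PHF10 knockdown (EIF1 and EIF2A) and 5 lower (EIF3A, EIF3B, EIF4A3, EIF4G1 and EIF4H). That fit called 13.4% of all genes (5.82% higher and 7.56% lower) and 14.9% of the initiation factor genes. Their fold changes kept their size and the errors shrank: EIF4G1 was -0.36 with SE 0.07 (adjusted p = 0.0146), EIF4A3 -0.35 with SE 0.07 (adjusted p = 0.0125), EIF3B -0.29 with SE 0.07 (adjusted p = 0.0243), and EIF2A 0.29 with SE 0.06 (adjusted p = 0.0221). The largest subunit of eIF3, EIF3A, read 424, 472, 604 and 543 CPM after PHF10 knockdown against 544 and 697 (-0.28, SE 0.08, adjusted p = 0.0447). The term was set up with earlier results of these data known, and the split is itself read from the libraries. Fitted alone, experiment 1 gave 0 calls among 46 initiation factor genes (0.28% of all genes).

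In the MYC-labelled libraries, initiation factor mRNAs lay mostly slightly below their controls, and none passed the threshold. The fit called 0 of 47 higher and 0 lower, where 0.493% of all genes were called (0.282% higher and 0.211% lower). The median log2 fold change was -0.14, beside -0.01 over all genes, with 38 estimates below 0 and 9 above it. Over all genes, 9429 estimates were below 0 and 9018 above it. At an unadjusted p under 0.05, 0 genes were higher and 2 were lower, EIF4EBP2 and EIF2B1. Over all 18450 genes these counts were 1221 and 1214. Both libraries labelled MYC knockdown lay below both controls for 32 of the 47 genes (68.1%), where 36.0% of all genes did, and above both for 6 (12.8%), where 33.6% did.

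The number of calls differed widely between fits. The replicates of experiment 2 lay far closer together: the common biological coefficient of variation was 3.39% in experiment 2 alone (2 residual degrees of freedom), 26.7% in experiment 1 alone and 21.4% in the joint fit. Fitted alone, experiment 2 called 4 initiation factor genes higher (8.51%) and 25 lower (53.2%), where 21.9% and 22.6% of all genes were called (44.5% in either direction). limma-voom with weights by experiment called 1 higher and 14 lower, where 15.8% and 16.7% of all genes were called, and DESeq2 called 0 higher and 1 lower, where 1.98% of all genes were lower. The labels do not say whether replicates came from separate cultures, so these p-values measure the spread between these libraries, which may be technical.

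By role, the fit of experiment 2 alone called 4 of the 5 eIF2B subunits lower, where 22.6% of all genes were called lower. EIF2B1, the regulatory alpha subunit, read 103 and 97.2 CPM in the MYC-labelled libraries, 128 and 127 in their controls, 110, 125, 152 and 134 after PHF10 knockdown and 131 and 145 in the experiment 1 controls. It was lower in both labelled libraries than in any other library. Its log2 fold change was -0.35 (SE 0.15, adjusted p = 0.364) in the joint fit and -0.34 (SE 0.05, adjusted p = 1.86e-08) in experiment 2 alone. EIF2B4, the delta subunit, was called higher there, at 44.8 and 48.4 against 40.3 and 41.2 CPM (0.20, SE 0.06, adjusted p = 0.00363).

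Of the 13 eIF3 subunits tested, that fit called 7 lower (EIF3B, EIF3D, EIF3E, EIF3I, EIF3J, EIF3L and EIF3M) and 0 higher. It called 22.6% of all genes lower and 21.9% higher. All 3 eIF4A genes were lower, by 0.33 (EIF4A1), 0.13 (EIF4A2) and 0.25 (EIF4A3) on the log2 scale. EIF4A1 and EIF4A2 share 48.6% and 10.5% of their exon bases with other genes, which leaves these counts uncertain. Of the scaffolds only EIF4G1 was called (-0.31, SE 0.04, adjusted p = 1.54e-08), while EIF4G2 and EIF4G3 gave -0.00 and -0.02. EIF4E, the cap-binding protein, read 28.5 and 30.0 CPM in the MYC-labelled libraries, 33.2 and 32.6 in their controls, 26.3, 24.8, 28.4 and 29.2 after PHF10 knockdown and 27.9 and 30.8 in the experiment 1 controls. The experiment 2 controls were above all other libraries. Its fold change was -0.17 (SE 0.12, adjusted p = 0.628) in the joint fit and -0.16 (SE 0.06, adjusted p = 0.0360) in experiment 2 alone.

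In the scanning group, EIF1AX and EIF5B were called lower in experiment 2 alone (-0.37 and -0.31) and EIF1 and EIF5 higher (0.12 and 0.20). EIF5, the GTPase activator of eIF2, read 268 and 274 CPM against 240 and 235. Also lower were EIF5A (-0.27), EIF6 (-0.16), EIF2D (-0.14), EIF4H (-0.12), EIF2S2 (-0.21) and EIF2S3 (-0.10), and EIF4B was higher (0.12). Apart from EIF4EBP2, none of the 29 genes called in experiment 2 alone differed by more than 0.37 on the log2 scale.

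EIF4EBP2 (chromosome 10, 70404379 to 70428618, GRCh38), which encodes the eIF4E-binding repressor 4E-BP2, stood apart. It read 99.3 and 93.4 CPM in the MYC-labelled libraries and 163 and 161 in their controls, and 93.9, 105, 121 and 103 after PHF10 knockdown and 91.3 and 116 in the experiment 1 controls. The experiment 2 controls were above all the other libraries, and the MYC-labelled libraries lay within the range of experiment 1. The log2 fold change in experiment 2 was -0.75 (SE 0.15, adjusted p = 0.0691) in the joint fit, just outside the threshold. It was called in 8 of 21 alternatives, with adjusted p from 1.49e-19 in experiment 2 alone (SE 0.04) to 0.617. DESeq2 gave 0.000684 and limma-voom 3.41e-05. The log2 fold change lay between -0.80 and -0.71 over the alternatives. With the replicate block, 0 genes of any kind were called in this comparison. Leaving out an experiment 2 library left 1 in its group. EIF4ENIF1, which carries eIF4E into the nucleus and represses it in granules, gave 0.14 (SE 0.12).

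**Figure D4:**
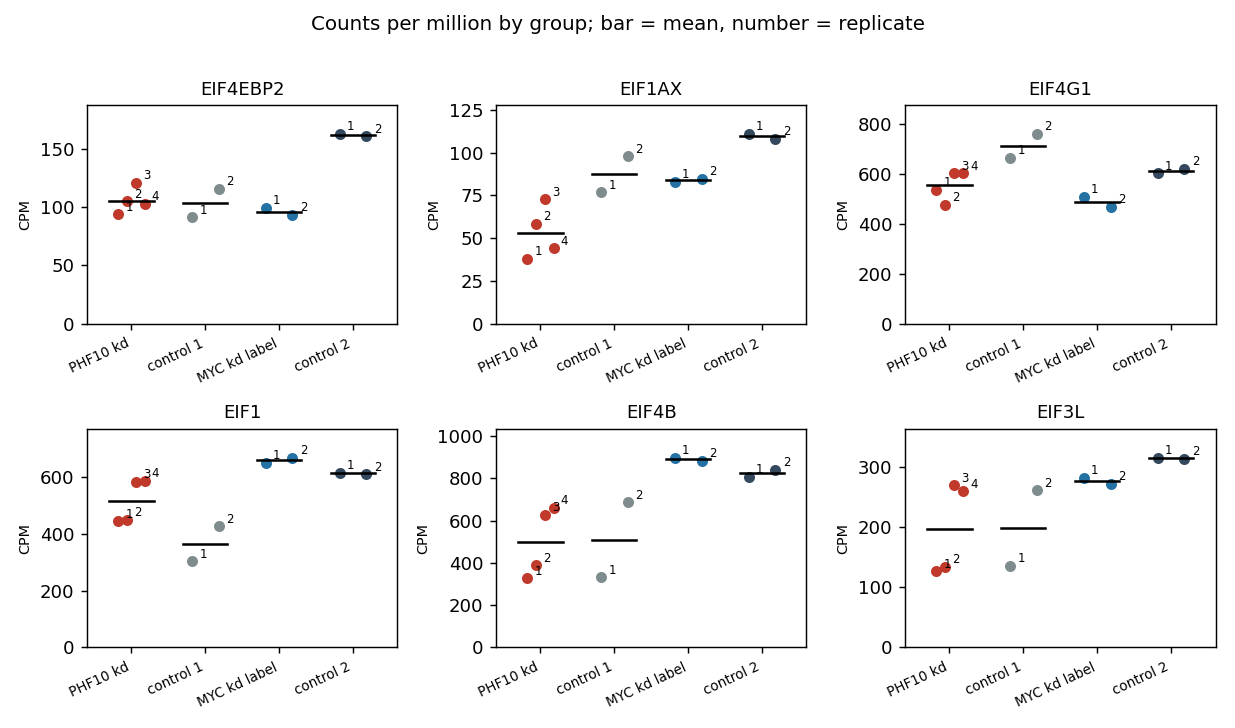
CPM (y axis, from 0) of 6 genes in the 4 groups (x axis: PHF10 knockdown, experiment 1 controls, libraries labelled MYC knockdown, experiment 2 controls), with 1 point per library numbered by replicate and a bar at the mean. The experiment 2 controls of EIF4EBP2 (163 and 161) lie above all other libraries, EIF1AX is lowest after PHF10 knockdown, and EIF4B and EIF3L split PHF10 knockdown replicates 1 and 2 and control replicate 1 from the rest.

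The 2 responses share no libraries and were compared directly. No initiation factor gene passed the threshold for a difference between them (0 of 47 in either direction, where 0.385% of all genes did). An unadjusted p under 0.05 was seen for 1 gene with a higher value and 0 with a lower one (1141 and 1016 of all 18450 genes). That gene was EIF4EBP2, with a difference of 0.78 (PHF10 response minus the MYC-labelled response, SE 0.20, adjusted p = 0.139). It was called in 3 of 20 alternatives: DESeq2 (adjusted p = 0.0170), limma-voom (0.0313) and the fit with the interferon term (0.0361), which called 1.97%, 1.22% and 1.54% of all genes in that direction. For EIF4G1 and EIF3B, which had like estimates in both comparisons, the differences were -0.04 and -0.02 (adjusted p = 0.980 and 0.985).

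Between the controls of the experiments, 3 initiation factor genes were higher in experiment 2 and 0 were lower, which is 6.38% of the 47 against 14.6% of all genes (8.05% higher and 6.6% lower). Experiment 2 was higher for EIF1 (0.75, SE 0.21, adjusted p = 0.0414), EIF4EBP2 (0.64, SE 0.15, adjusted p = 0.0233) and EIF4G2 (0.74, SE 0.20, adjusted p = 0.0333). EIF4G2, a scaffold for initiation without the cap, read 442 and 593 CPM in the experiment 1 controls and 862 and 871 in the experiment 2 controls. It read 476, 460, 566 and 614 after PHF10 knockdown and 851 and 867 in the MYC-labelled libraries, so every library of experiment 2 was above every library of experiment 1. All 3 calls were lost without control replicate 1 of experiment 1, where the adjusted p values rest on 1 control, and without either control of experiment 2, and EIF4EBP2 alone was called without either MYC-labelled library and with the replicate block. Other fits called more: 5 higher with DESeq2 (11.2% of all genes) and with limma-voom (10.6%), 7 with no filter (5.3%) and 14 with experiment 1 limited to its interferon-high libraries (8.14%). The last of these fits also rests on 1 experiment 1 control, replicate 1. Both groups in this comparison are controls, so it is one between experiments, and the cause of the differences was not tested.

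Genes with and without the E-box had similar median fold changes, and the difference was not tested. In the MYC-labelled comparison the median was -0.10 over the 10 tested genes with the motif and -0.15 over the 31 with a window and no motif, and after PHF10 knockdown the medians were -0.07 and -0.03. EIF4G1 and EIF4E, with 2 matches each, gave -0.32 and -0.17 in the MYC-labelled comparison. EIF4A3 and EIF4B, with 1 each, gave -0.26 and 0.11, and EIF4EBP2, with none in its window, -0.75.

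Other genes of the pathway were read beside them: 54 regulators and partners, of which 53 were tested. After PHF10 knockdown 0 of the 53 were called higher and 1 lower (2.75% and 3.58% of all genes), EIF2AK4, the kinase GCN2 that phosphorylates eIF2 when amino acids run short. EIF2AK4 read 101, 109, 111 and 96.5 CPM after PHF10 knockdown, 134 and 142 in those controls, 150 and 142 in the MYC-labelled libraries and 183 and 182 in the experiment 2 controls. Each knockdown group lay below both of its own controls. Over all genes, 13.7% did so in the PHF10 comparison and 36.0% in the MYC-labelled one. The PHF10 log2 fold change was -0.41 (SE 0.10, adjusted p = 0.0408), called in 7 of 21 alternatives (in 2 of the 10 fits that leave out a library) and not in experiment 1 alone (adjusted p = 0.190). In the MYC-labelled comparison 0 of 53 were called in the joint fit (0.493% of all genes), and 5 higher and 20 lower in experiment 2 alone (21.9% and 22.6% of all genes). Between the controls, 3 were higher in experiment 2 and 1 was lower (8.05% and 6.6% of all genes): EIF2AK4 (0.40), PPP1R15A (0.94), which recruits the phosphatase of eIF2, and TRIB3 (0.48) were higher, and SESN2 (-0.85), a sensor of leucine, was lower. EIF4EBP1 encodes 4E-BP1 and was left out of the set by its rule. It read 90.9 and 84.2 CPM in the MYC-labelled libraries against 107 and 107 in their controls (-0.29, adjusted p = 0.556 in the joint fit and 1.96e-06 in experiment 2 alone). EIF2AK2, the double-stranded RNA kinase PKR and itself an interferon-stimulated gene, read 482, 352, 83.6 and 131 CPM after PHF10 knockdown and 469 and 134 in the experiment 1 controls, high in the same 3 libraries as the interferon genes. It was named after its values were seen.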

How the data were processed

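RNA from 10 A375 libraries was deposited as raw counts per gene, which the authors made with cutadapt and STAR on build hg38 (GRCh38.p13), as named in the submitters' processing notes. Their versions, and the annotation, were not given in the sources used here. Of 60623 gene IDs, the opposite-strand column was used. Summary lines (19.1% to 23.6% of a library) stayed out. Symbols came from a gene name table (60295 IDs) and GENCODE 29, which also gave coordinates and transcript lengths. The test was that of edgeR 4.0.16 in R 4.3.3 (quasi-likelihood, TMM, filterByExpr, robust) over all 10 libraries as 4 group means with 6 residual degrees of freedom, and Benjamini-Hochberg adjusted p under 0.05 over 18450 genes was called. CPM are counts over TMM-scaled library sizes, and RPKM divides these by transcript length.

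Members and lists were chosen with earlier results of these data known. Per role, values are given for genes past the threshold in a knockdown comparison and their paralogs, or otherwise for the gene with the smallest unadjusted p over both. Of the other pathway genes, those past the threshold in a knockdown comparison are named. Genes outside this rule are EIF1, EIF4G2 and EIF4G3, EIF3A, EIF4A2, EIF4B, EIF3L, EIF2B4, EIF5, EIF4ENIF1, EIF4EBP1, EIF2AK2, PPP1R15A, TRIB3 and SESN2, and the genes listed as called in an alternative fit, chosen after their values were seen. Alternatives were DESeq2 1.42.0, limma-voom 3.58.1, RLE factors, other filters (1 read in all, or 1 CPM in 4 libraries), unstranded counts, each experiment alone, a replicate block, a term for the interferon split and leaving out each library. Experiment 1 limited to its interferon-high or interferon-low libraries was added after seeing the data. On simulated counts the edgeR fit recovered 50% of 100 genes changed by 1 on the log2 scale in the PHF10 comparison (18047 genes) and 32% in the MYC-labelled one (18038 genes). At a change of 2 it recovered 86% and 82%. These counts were drawn from 1 mean per gene for all groups and the spread of the joint fit, without the interferon split. Smaller changes were not simulated, and the spread of each experiment alone differed (26.7% and 3.39%). The shares recovered therefore do not describe either real comparison. One planned marker gene is not reported here.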

Additional observations from a re-analysis of the deposited data

Results flagged for a closer look

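EIF2S3B, a low-count copy of EIF2S3, had 1 PHF10 knockdown library far from the others: replicate 1 read 0.715 CPM, above 0.486, 0.445 and 0.477 in the rest. The gap to the nearest library was 0.846 of the group's range, above the 95% critical value of Dixon's test for 4 samples. Chance alone gives such a gap in about 1 of 20 groups, and the gene had 215 reads over all libraries.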

How the results depend on the processing

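After PHF10 knockdown, where 0 initiation factor genes were called in either direction, 1 was called higher (EIF1) with experiment 1 limited to its interferon-high libraries (0.701% of all genes) and 1 (EIF1) to its interferon-low ones (1.84%), and 2 with the interferon split as a term. Called lower were 1 with DESeq2, 2 with no filter (EIF1AX and EIF4A2, 3.14% of all genes), 5 with the split as a term and 1 with the replicate block (2.73%), and 0 to 1 when a library was left out (EIF1AX, without PHF10 knockdown replicate 3). In the MYC-labelled comparison, 4 were called higher in experiment 2 alone and 1 by limma-voom. Called lower were 1 with DESeq2, with no filter, with the split as a term and with the interferon-high libraries alone (1.98%, 1.16%, 1.59% and 0.396% of all genes), 2 with the interferon-low ones (EIF4EBP2 and EIF4G1, 2.85%), 14 by limma-voom, 25 in experiment 2 alone, and 0 to 1 when a library was left out (EIF4EBP2, without PHF10 knockdown replicate 1). For the difference of the responses, 1 was called higher (EIF4EBP2) by DESeq2, limma-voom and the split as a term. Between controls, where 3 were higher, 5 were with DESeq2 and with limma-voom, 7 with no filter, 14 with the interferon-high libraries alone (11.2%, 10.6%, 5.3% and 8.14% of all genes), 1 with the replicate block (EIF4EBP2, 4.49% of all genes) and 0 to 3 when a library was left out: 0 without experiment 1 control replicate 1 or either experiment 2 control, and 1 without either MYC-labelled library. Called lower between controls were 2 with the interferon-low libraries alone (EIF4G1 and EIF5B, 6.93% of all genes) and 2 with the split as a term (EIF2B4 and EIF4G1, 8.68%). The cause of these moves was not tested. Of the counts of calls under each alternative, 131 stayed within 1.5 times the count reported and 33 did not. Counts of 0 that stayed at 0 are among the 131, so the tally does not measure stability. No called value turned its direction, but the joint fit called initiation factor genes only between controls. Fits that leave a group with 1 library assume that it varies like the others. The fits limited to the interferon-high or interferon-low libraries are of this kind, with 1 experiment 1 control each.

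The labels give replicate numbers in both groups of each experiment, but they share only a number. Deviations from the group means correlated with r = 0.484 and -0.297 for numbers 1 and 2 in experiment 1 and -0.0309 for both in experiment 2. With the replicate block the median PHF10 fold change was -0.20. Calls over all genes moved from 508 higher and 661 lower to 366 and 503 in the PHF10 comparison and from 52 and 39 to 0 and 0 in the MYC-labelled one.

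Groups of 2 and the wide spread of experiment 1 limit what can be called. EIF2S3B, EIF4E3 and EIF5AL1 were near or under 1 CPM throughout, and their values rest on 215, 144 and 242 reads over all libraries.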
